A study of Mus musculus with 32 samples.

Results

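The 10 genes that mark blood vessel endothelium, Cldn5, Egfl7, Kdr, Flt1, Pecam1, Cdh5, Tek, Tie1, Esam and Vwf, were followed by symbol through a table of raw read counts for 24421 genes. All 10 genes were found and all 10 passed the filter on low counts in every comparison. The set was chosen by its endothelial role after Cldn5 and Egfl7 had been selected on their CPM, which was higher in albino muscle in these same libraries, so their muscle values are given as a description, without a test, and the question was whether the other 8 genes moved with them. The study sequenced RNA from the eye muscles (extraocular muscle, EOM), a lower leg muscle (tibialis anterior, TA) and brainstem samples labelled oculomotor neuron (CN3) and abducens motor neuron (CN6). Albino mice of the strain B6(CG)Tyr(c-2J)/J, which carry a mutant allele of the tyrosinase gene and were studied here for nystagmus, an involuntary oscillation of the eyes, were compared with pigmented C57BL/6 mice, with 4 libraries for each tissue and genotype (32 in all). The labels name no treatment, and the age and sex of the mice are not given in the sources used here. Nothing in the labels ties a library to an animal, so p-values measure the spread between these libraries, which may be technical.

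The libraries held 18544334 to 44254021 counts. Markers went against the label in 8 of the 16 albino libraries. Albino EOM 1 and 2 and likewise TA 1 and 2, by their labels, had the neuronal gene Snap25 at brain levels. Albino CN3 3 and 4 and likewise CN6 3 and 4, by their labels, had the muscle creatine kinase gene Ckm at muscle levels. Across all libraries, Ckm was 4279 to 14902 CPM (a gene's counts per 1000000 counts of its library) in those with muscle markers and at most 1.61 CPM in the others. The main comparisons therefore used the 24 libraries whose markers match their label, 4 C57BL/6 and 2 albino per tissue. The other 8 are shown in the tissue to which their markers assign them (labelled CN3 3 and 4 with EOM, CN6 3 and 4 with TA, EOM 1 and 2 with CN3, TA 1 and 2 with CN6), and the comparisons were repeated with them in those marker groups. Their assignment uses the data, not the labels. The hindbrain gene Hoxb3 was 23.0 to 31.4 CPM in C57BL/6 CN6 and at most 0.271 CPM in C57BL/6 CN3, but 2.61 CPM in the library labelled albino CN6 1, so the site of that sample is in doubt. Phox2a, a transcription factor gene of oculomotor neurons, was listed at 0 in the 4 C57BL/6 CN3 libraries, so the motor neurons themselves were not detectable by it. Tyr was at most 0.642 CPM in any library, too low to check the genotype.

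Endothelial cells line every blood vessel, and the 10 genes encode parts of the machinery that they share. Cldn5 encodes claudin-5, the main tight junction protein that seals vessels of the brain, and Egfl7 encodes a secreted protein that endothelial cells lay down around growing vessels. Kdr and Flt1 encode VEGF receptors 2 and 1: the first carries most of the growth signal of VEGF-A, while the second binds VEGF-A more tightly, signals weakly and limits the signal, partly as a soluble form that shares the gene. Tek encodes the angiopoietin receptor Tie2, and Tie1 its partner receptor. Pecam1, Cdh5 (VE-cadherin) and Esam encode adhesion proteins of the contacts between endothelial cells. Vwf encodes von Willebrand factor, which captures platelets and is stored mostly in larger vessels and veins.

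RefSeq promoters (GRCm38.p6, 250 bases before to 50 bases after an annotated start) were matched for 6 of the 10 genes, with 3 starts for Egfl7, and those of Pecam1, Cdh5, Esam and Vwf were not matched. The promoters of the pair that defined the question and of the VEGF receptor pair are shown because the first pair poses the question and the second moved in opposite directions in both muscles. Each is written 5′ to 3′ on the gene's strand, and capitals mark the core GGAA of the motif of ETS factors, a family of endothelial regulators, or its reverse complement TTCC. The Cldn5 window is chr16:18776597-18776896 on the plus strand and the Egfl7 window, at the first of the 3 starts, is chr2:26580833-26581132 on the plus strand. The Kdr window is chr5:75978406-75978705 and the Flt1 window chr5:147725962-147726261, both on the minus strand.
Cldn5: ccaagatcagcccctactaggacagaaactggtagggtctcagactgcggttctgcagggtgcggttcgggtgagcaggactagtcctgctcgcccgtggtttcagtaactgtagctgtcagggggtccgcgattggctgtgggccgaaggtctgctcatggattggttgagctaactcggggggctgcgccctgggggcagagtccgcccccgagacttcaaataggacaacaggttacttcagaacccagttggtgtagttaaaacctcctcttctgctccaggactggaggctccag
Egfl7: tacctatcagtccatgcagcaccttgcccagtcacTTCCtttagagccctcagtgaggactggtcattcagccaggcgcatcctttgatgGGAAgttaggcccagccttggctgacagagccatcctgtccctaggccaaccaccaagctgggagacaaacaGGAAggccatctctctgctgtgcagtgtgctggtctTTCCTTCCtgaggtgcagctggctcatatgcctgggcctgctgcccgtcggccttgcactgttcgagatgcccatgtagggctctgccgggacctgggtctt
Kdr: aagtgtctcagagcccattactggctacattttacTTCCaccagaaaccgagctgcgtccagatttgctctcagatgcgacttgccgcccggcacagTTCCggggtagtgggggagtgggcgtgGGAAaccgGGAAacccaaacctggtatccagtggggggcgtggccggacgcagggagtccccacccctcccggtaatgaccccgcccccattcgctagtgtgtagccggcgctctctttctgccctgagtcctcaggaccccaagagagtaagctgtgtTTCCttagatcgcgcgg
Flt1: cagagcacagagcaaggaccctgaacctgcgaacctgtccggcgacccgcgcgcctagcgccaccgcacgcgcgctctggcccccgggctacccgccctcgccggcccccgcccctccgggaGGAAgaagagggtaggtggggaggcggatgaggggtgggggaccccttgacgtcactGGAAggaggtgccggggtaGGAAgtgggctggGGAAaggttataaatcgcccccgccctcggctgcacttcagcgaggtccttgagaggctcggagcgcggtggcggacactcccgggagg
The Cldn5 window held 0 copies of the core, Egfl7 5, Kdr 5 and Flt1 4. Over the 32851 RefSeq promoters of this length, 96.0% held at least 1 copy, with a median of 3, so its presence is common. The E-box CACGTG, in 7.2% of all promoters, was in none of these 4 windows. The GC box GGGCGG or its reverse complement, in 35.7% of all promoters, had 1 copy in Cldn5, 2 in Kdr, 3 in Flt1 and 0 in the Egfl7 window shown. Promoter GC content was 58.3% for Cldn5, 58.3% for the Egfl7 window shown, 60.7% for Kdr and 70.7% for Flt1. The Egfl7 values depend on the start. The windows at its starts 2 and 3, not shown, held 4 and 1 copies of the ETS core and 0 and 4 GC boxes. Their GC content was 59.0% and 67.3%.

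The Egfl7 gene (chromosome 2, 26580014 to 26593120, plus strand, mm10) also carries miR-126a, a microRNA known for its abundance in endothelium, and its mature strand is printed here with the seed (bases 2 to 8) in capitals.
mmu-miR-126a-3p: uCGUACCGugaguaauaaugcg
It lies at chr2:26591402-26591423 on the plus strand and overlaps an annotated Egfl7 exon. The count table holds the hairpin as a gene of its own with at most 1 read in any library, so it says nothing about the mature microRNA. Egfl7 also overlaps Agpat2 on the opposite strand, by 64 of its 3581 exon bases (1.8%), and the model gene Gm20532 on the same strand. The strand setting of the counting is not given in the sources used here, so a share of the Egfl7 reads could belong to a neighbour. Agpat2 itself had log2 fold changes of 0.36 ± 0.19 (SE, adjusted p = 0.199) in EOM and 0.38 ± 0.26 (adjusted p = 0.292) in TA. Cldn5 (chromosome 16, 18776847 to 18778262, plus strand) is a single exon of 1416 bases.

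Cldn5 was higher in every albino muscle library than in every C57BL/6 one. In EOM the 4 C57BL/6 libraries held 7.40, 5.72, 5.13 and 6.38 CPM, the 2 albino libraries 22.6 and 19.2 CPM, and the libraries labelled albino CN3 3 and 4 held 17.8 and 33.9 CPM. In TA the C57BL/6 libraries held 6.72, 5.71, 3.81 and 4.68 CPM, the albino libraries 20.2 and 24.5 CPM, and the libraries labelled albino CN6 3 and 4 held 19.9 and 34.3 CPM. The groups did not overlap in either muscle, with or without the libraries placed by their markers. The share of all genes whose groups do not overlap was not counted, here or for the genes below. The fitted log2 fold change, albino over C57BL/6, was 1.77 ± 0.17 (SE) in EOM and 2.06 ± 0.17 in TA, and 1.91 ± 0.20 and 2.27 ± 0.21 in the marker groups. These rest on 88 to 181 Cldn5 reads in a C57BL/6 muscle library and 378 to 817 in an albino one.

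Egfl7 was the other gene chosen for its rise. C57BL/6 EOM held 33.1, 28.0, 35.2 and 33.2 CPM, albino EOM 92.2 and 82.0 CPM, and the libraries labelled albino CN3 3 and 4 held 87.1 and 99.3 CPM. C57BL/6 TA held 23.7, 25.6, 25.9 and 27.8 CPM, albino TA 47.5 and 55.1 CPM, and the libraries labelled albino CN6 3 and 4 held 65.4 and 49.8 CPM. Again every albino muscle library was above every C57BL/6 one. The log2 fold change was 1.44 ± 0.09 in EOM and 0.96 ± 0.09 in TA, and its excess in EOM over TA was 0.47 ± 0.13, also given as a description only.

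Base composition moved with genotype in the muscle libraries. The tilt of a library, the median log2 deviation from the C57BL/6 mean of its tissue in the top of 4 equal classes of genes by GC content minus that in the bottom class, was 0.66 and 0.68 in the 2 albino EOM libraries and 0.40 and 0.46 in the 2 albino TA libraries. It was between -0.14 and 0.13 in C57BL/6 EOM and between -0.10 and 0.06 in C57BL/6 TA. Transcript GC content placed Cldn5 at percentile 96.4 and Egfl7 at percentile 86.7 of 14247 genes, while Kdr stood at 47.6 and Flt1 at 53.3. Tie1 stood at 88.8 and Vwf, whose EOM difference was negative and not called, at 84.3. The genotype difference also ran with exon length. Its median log2 value in EOM was 0.28 in the shortest of 4 equal classes of genes and -0.29 in the longest. For TA these medians were 0.13 and -0.11. By exon length Cldn5 stood at percentile 5.36, Egfl7 at 37.0, Kdr at 86.8, Flt1 at 96.1 and Vwf at 97.9. With offsets for GC content and exon length in the fit, the Cldn5 difference was 1.22 ± 0.16 in EOM and 1.70 ± 0.16 in TA. For Egfl7 it was 1.17 ± 0.11 and 0.72 ± 0.09. Both differences were smaller with the offsets and stayed positive in both muscles. The offsets do not separate GC content from length. How far base composition or exon length accounts for these differences was not tested further.

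**Figure D1:**
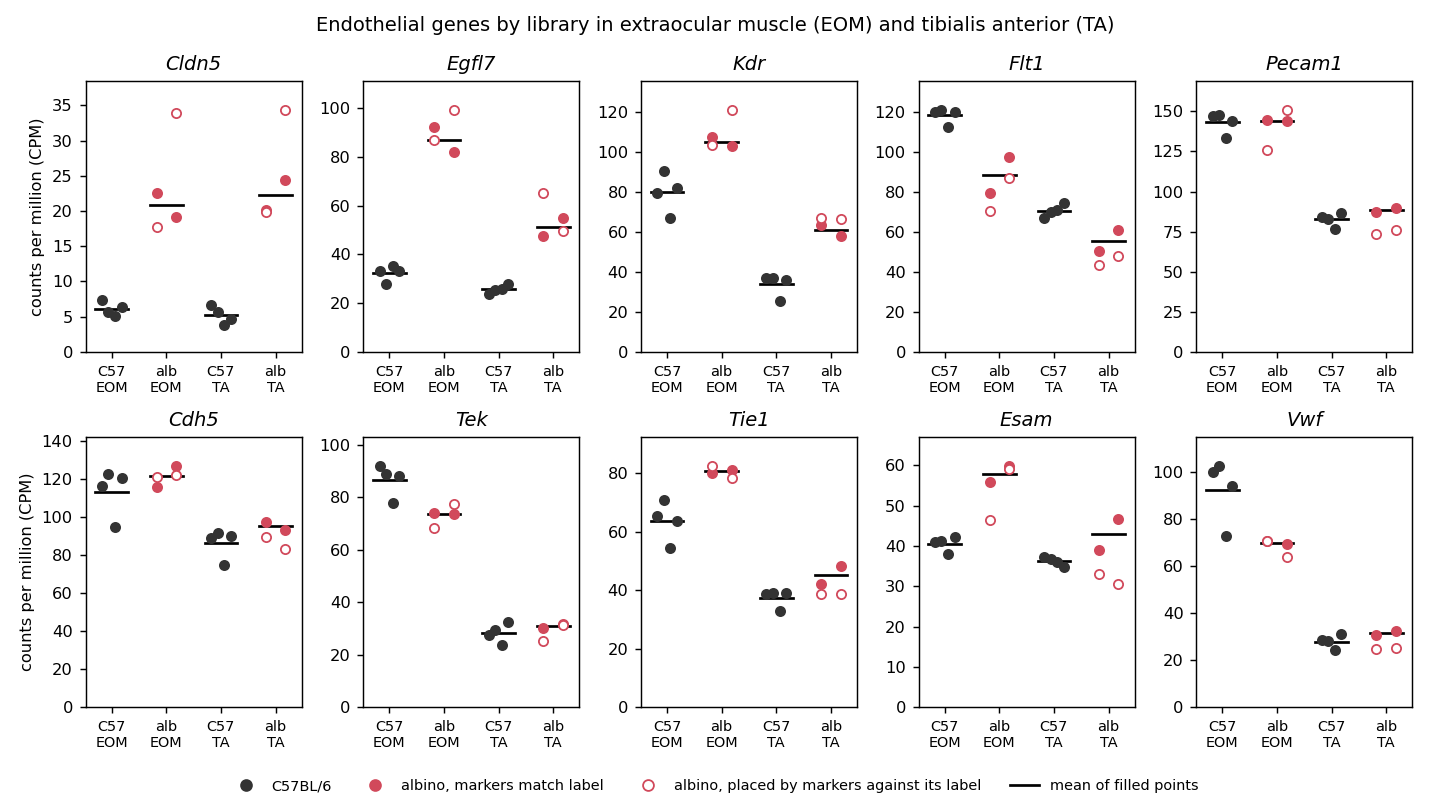
CPM of the 10 genes in each muscle library, from 0 on each vertical axis, with black points for C57BL/6, filled red for albino libraries whose markers match their label, open red for albino libraries placed by markers against their label, and a line at the mean of the filled points. Cldn5, Egfl7 and Kdr are higher and Flt1 is lower in every albino library in both muscles, while Pecam1 and Cdh5 overlap between genotypes in both muscles once the open points are included.

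The VEGF receptor genes moved in opposite directions. Kdr (chromosome 5, 75932827 to 75978458) was 79.8, 90.4, 67.2 and 82.0 CPM in C57BL/6 EOM against 107.5 and 103 CPM in albino EOM. In TA it was 37.0, 36.9, 25.7 and 35.8 CPM against 63.5 and 58.3 CPM. The groups did not overlap in either muscle, also not with the libraries labelled albino CN3 3 and 4 (103 and 121 CPM, beside EOM) and CN6 3 and 4 (66.9 and 66.8 CPM, beside TA). With so few libraries this does not set Kdr apart. In the 24 libraries, Tek and Vwf in EOM and Pecam1 and Cdh5 in TA did not overlap either, though none was called. Kdr rose by 0.41 ± 0.12 (log2, adjusted p = 0.0292) in EOM and by 0.82 ± 0.11 (adjusted p = 2.0e-04) in TA. In the marker groups the differences were 0.44 ± 0.10 (adjusted p = 0.00565) and 0.94 ± 0.11 (adjusted p = 5.3e-05). The TA call held without any 1 library, but the EOM call was lost without C57BL/6 EOM 1 (0.39), albino EOM 3 (0.39) or albino EOM 4 (0.38), with adjusted p from 0.0167 to 0.123 over the 6 fits. With GC and length offsets Kdr was 0.59 ± 0.14 (adjusted p = 0.0312) in EOM and 0.79 ± 0.11 (adjusted p = 2.8e-04) in TA.

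Flt1 (chromosome 5, 147561604 to 147726011) was lower in albino muscle. C57BL/6 EOM held 120.2, 121, 112 and 119.8 CPM against 79.4 and 97.3 CPM in albino EOM, and C57BL/6 TA held 67.0, 69.9, 70.8 and 74.3 CPM against 50.5 and 60.9 CPM in albino TA. Every albino library was below every C57BL/6 one of its muscle, as were the libraries labelled albino CN3 3 and 4 (70.2 and 86.9 CPM, beside EOM) and CN6 3 and 4 (43.7 and 47.7 CPM, beside TA). Flt1 fell by 0.40 ± 0.11 in EOM (log2, adjusted p = 0.0224) and by 0.37 ± 0.08 in TA (adjusted p = 0.00439). In the marker groups the differences were -0.51 ± 0.09 (adjusted p = 0.00239) and -0.46 ± 0.09 (adjusted p = 0.00152). The EOM call was lost without C57BL/6 EOM 2 (-0.39), C57BL/6 EOM 4 (-0.39) or albino EOM 3 (-0.26), and with GC and length offsets (-0.17 ± 0.12, adjusted p = 0.418). The TA call was lost without albino TA 3 (-0.25) and held with the offsets (-0.39 ± 0.07, adjusted p = 0.00223). Reads of membrane and soluble Flt1 share this symbol and cannot be told apart in gene counts.

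The ratio of Kdr to Flt1 within a library gives the same contrast on 1 scale. It was 0.598 to 0.748 in C57BL/6 EOM and 1.06 to 1.35 in the 2 albino EOM libraries, and 0.363 to 0.552 in C57BL/6 TA against 0.956 to 1.26 in albino TA. With the libraries placed by their markers the albino ranges reached 1.47 in EOM and 1.53 in TA. In CN3 the ranges overlapped, at 0.225 to 0.390 in C57BL/6 and 0.341 to 0.345 in albino. In CN6 they did not, at 0.250 to 0.305 in C57BL/6 and 0.340 to 0.361 in albino, although neither gene was called there. The ratio was chosen after these values were seen and carries no test.

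**Figure D2:**
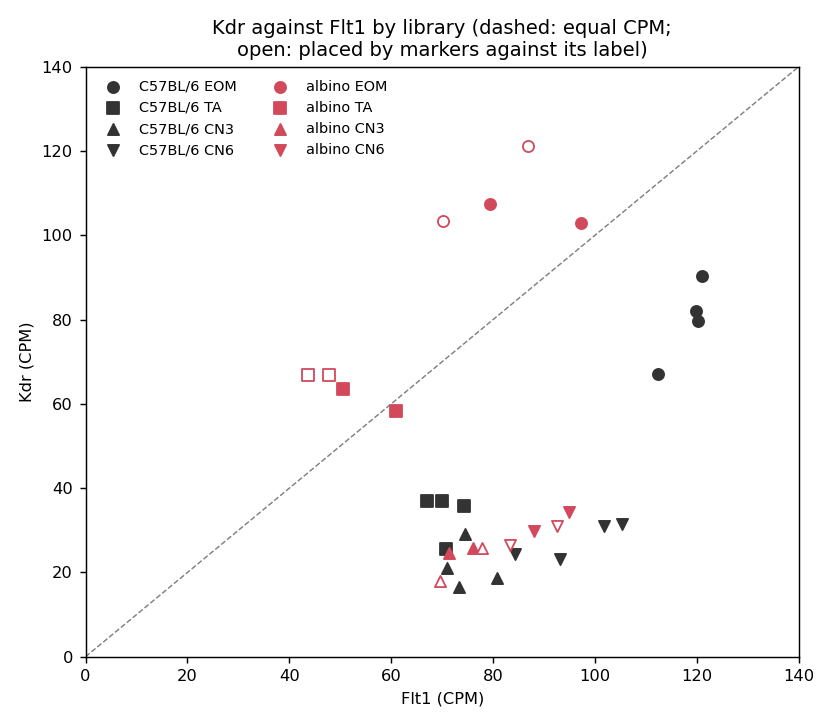
Kdr against Flt1, both in CPM on linear axes, with 1 symbol per library, shapes for tissues, black for C57BL/6, red for albino, and open symbols for albino libraries placed by markers against their label. The dashed line marks equal values: C57BL/6 libraries and brainstem libraries lie below it, and of the albino muscle libraries 1 kept TA library lies just below it at a ratio of 0.956.

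The angiopoietin receptor genes differed less. Tie1 (chromosome 4, 118471191 to 118490061) was 65.5, 71.0, 54.5 and 63.8 CPM in C57BL/6 EOM and 80.2 and 81.2 CPM in albino EOM. In TA it was 38.7, 38.9, 33.0 and 39.0 CPM against 42.1 and 48.3 CPM. Tie1 rose by 0.36 ± 0.11 in EOM (log2, adjusted p = 0.0420) and 0.24 ± 0.08 in TA (adjusted p = 0.0415). Neither call was firm. In EOM it was lost without C57BL/6 EOM 1 (0.34), C57BL/6 EOM 4 (0.37), albino EOM 3 (0.37) or albino EOM 4 (0.28) and with GC and length offsets (0.13 ± 0.13, adjusted p = 0.559). In TA it was lost without C57BL/6 TA 1 (0.25), 2 (0.26), 3 (0.21) or 4 (0.26) or albino TA 4 (0.17), with the offsets (0.01, adjusted p = 0.932) and in the marker groups (0.18 ± 0.08, adjusted p = 0.100). Tie1 stands at percentile 88.8 of transcript GC content.

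Tek (chromosome 4, 94739289 to 94874976) was 92.0, 88.9, 77.6 and 87.9 CPM in C57BL/6 EOM and 74.1 and 73.4 CPM in albino EOM. Its log2 fold change was -0.22 ± 0.10 and did not pass (adjusted p = 0.119). It passed in the marker groups (-0.24 ± 0.07, adjusted p = 0.0244) and without C57BL/6 EOM 3 (-0.28). Tek did not pass with GC and length offsets (-0.12 ± 0.12, adjusted p = 0.595) or with the replicate number as a block (-0.14, adjusted p = 0.414). In TA the ranges overlapped, with 23.9 to 32.4 CPM in C57BL/6 and 30.2 and 31.6 CPM in albino (0.09, not called).

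Of the adhesion genes, only Esam passed in the 24 libraries, and only in EOM. Esam (chromosome 9, 37528078 to 37538319) held 41.0, 41.1, 38.1 and 42.2 CPM in C57BL/6 EOM and 55.8 and 59.9 CPM in albino EOM, with 46.5 and 59.1 CPM in the libraries labelled albino CN3 3 and 4. The groups did not overlap. Esam rose by 0.53 ± 0.09 (log2, adjusted p = 0.00353), with adjusted p from 0.00535 to 0.0329 over the 6 fits without 1 library, but was 0.28 ± 0.12 with GC and length offsets (adjusted p = 0.150). In TA it was 37.2, 36.8, 36.2 and 34.9 CPM against 39.0 and 46.7 CPM, a log2 fold change of 0.21 (adjusted p = 0.0701) that passed without albino TA 3 (0.33) and with library totals only (0.24, adjusted p = 0.0454). It was 0.05 in the marker groups and -0.14 with only the libraries labelled albino CN6 3 and 4.

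Pecam1 and Cdh5, the most widely used endothelial genes of the set, gave the smallest differences in EOM. Pecam1 (chromosome 11, 106654217 to 106750628) was 147, 148, 133 and 144 CPM in C57BL/6 EOM and 144.5 and 143.9 CPM in albino EOM. In TA it was 84.4, 82.9, 76.8 and 86.6 CPM against 87.0 and 89.8 CPM. Its log2 fold change was 0.03 ± 0.08 in EOM (adjusted p = 0.840) and 0.07 ± 0.06 in TA. Cdh5 (chromosome 8, 104101625 to 104144511), which overlaps the model gene Gm29682 on the opposite strand, was 94.8 to 123 CPM in C57BL/6 EOM against 116 and 127 CPM, and 74.7 to 91.7 CPM in C57BL/6 TA against 97.8 and 93.5 CPM. Its differences were 0.11 ± 0.13 in EOM (adjusted p = 0.534) and 0.12 ± 0.08 in TA (adjusted p = 0.280). In these bulk samples, fewer or more cells of a type and less or more RNA per cell cannot be told apart for any of the 10 genes.

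Vwf (chromosome 6, 125546774 to 125686679) was 100.3, 103, 72.9 and 94.3 CPM in C57BL/6 EOM, of which C57BL/6 EOM 3 was the lowest, and 70.9 and 69.4 CPM in albino EOM. Its difference was -0.39 ± 0.14 and did not pass (adjusted p = 0.0724). It passed in the marker groups (-0.43 ± 0.12, adjusted p = 0.0154), without C57BL/6 EOM 3 (-0.50), with no filter (-0.42, adjusted p = 0.0387) and with the DESeq2 Wald test (adjusted p = 0.0260). In TA it was 24.2 to 31.0 CPM in C57BL/6 and 30.9 and 32.4 CPM in albino (0.14, not called).

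Counted over the 8 genes not chosen for their muscle values, 3 rose in EOM (Kdr, Tie1 and Esam) and 1 fell (Flt1), where 14.5% of all genes tested rose and 17.6% fell. In TA 2 of the 8 rose (Kdr and Tie1) and 1 fell (Flt1), against 14.7% and 16.4% of all genes. In the marker groups 3 of the 8 rose and 3 fell in EOM (Flt1, Tek and Vwf), against 17.8% and 21.2% of all genes, and in TA 1 rose and 1 fell, against 16.6% and 17.0%. The median log2 fold change of the 8 was 0.07 in EOM and 0.13 in TA, beside 0.01 and 0.00 over all genes. The 8 genes therefore did not share 1 direction. Each count is read beside the share of all genes called. With 8 genes the counts are too few to tell whether they differ from that share, which was not tested.

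**Figure D3:**
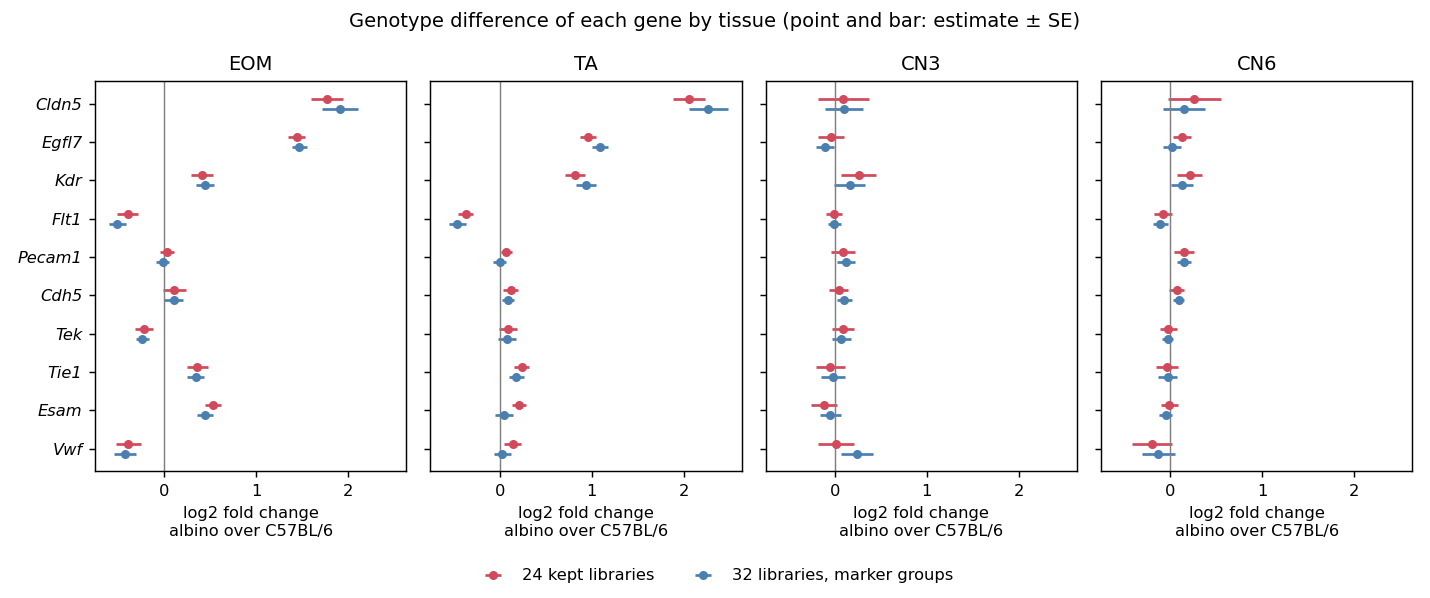
Log2 fold change of albino over C57BL/6 with its standard error for the 10 genes (rows) in the 4 tissues (panels), in red for the 24 libraries whose markers match their label and in blue for all 32 libraries in the marker groups. In EOM and TA Cldn5, Egfl7 and Kdr lie right of 0 and Flt1 left of it, and in CN3 and CN6 the estimates lie between -0.20 and 0.26 in the 24 libraries.

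Whether the genotype difference itself differed between EOM and TA was tested for the same 8 genes, and 0 of them passed, where 7.73% of all genes did. At an unadjusted p under 0.05, 2 of the 8 passed. The lowest value was that of Vwf, -0.54 ± 0.19 (EOM minus TA, adjusted p = 0.0999), which passed with the DESeq2 Wald test (-0.57, adjusted p = 0.0323) and without C57BL/6 EOM 3 (-0.66). Kdr had a difference of -0.41, and Esam one of 0.31 that passed in the marker groups (0.44 ± 0.14, adjusted p = 0.0488).

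In the brainstem samples none of the 10 genes passed the test between genotypes, in the 24 libraries or in the marker groups. Over all genes 0.0804% were called in CN3 and 0.0246% in CN6. At an unadjusted p under 0.05, 0 of the 10 passed in CN3 and 0 in CN6, and the DESeq2 Wald test called none of them either. The log2 fold changes ran from -0.12 to 0.26 in CN3, with standard errors of 0.09 to 0.28, and from -0.20 to 0.26 in CN6, with standard errors of 0.08 to 0.29. Cldn5 was 18.5, 21.2, 38.2 and 36.7 CPM in C57BL/6 CN3 against 31.6 and 28.8 CPM in albino CN3. It was 25.8, 19.3, 44.1 and 42.8 CPM in C57BL/6 CN6 against 41.3 and 38.5 CPM in albino CN6. In both tissues C57BL/6 libraries 1 and 2 were low and 3 and 4 high, and the albino values lay between the low and the high pair. The 2 albino libraries of each tissue carry the numbers 1 and 2, and each was higher than the C57BL/6 library of the same number. The GC tilt of these libraries was -0.13, -0.05, 0.18 and 0.00 in CN3 and 0.16, -0.09, 0.01 and -0.07 in CN6. In CN3 the low pair of libraries also had the lower tilt, and in CN6 the tilts of the pairs overlapped. The part of base composition in this split was not tested. Egfl7 was 22.7 to 31.1 CPM in C57BL/6 CN3 and 23.6 and 27.9 CPM in albino CN3. The Cldn5 spread gives standard errors of 0.28 in CN3 and 0.29 in CN6, so a difference the size of that of Kdr in EOM would lie within 2 standard errors in this fit, which does not use the replicate numbers.

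**Figure D4:**
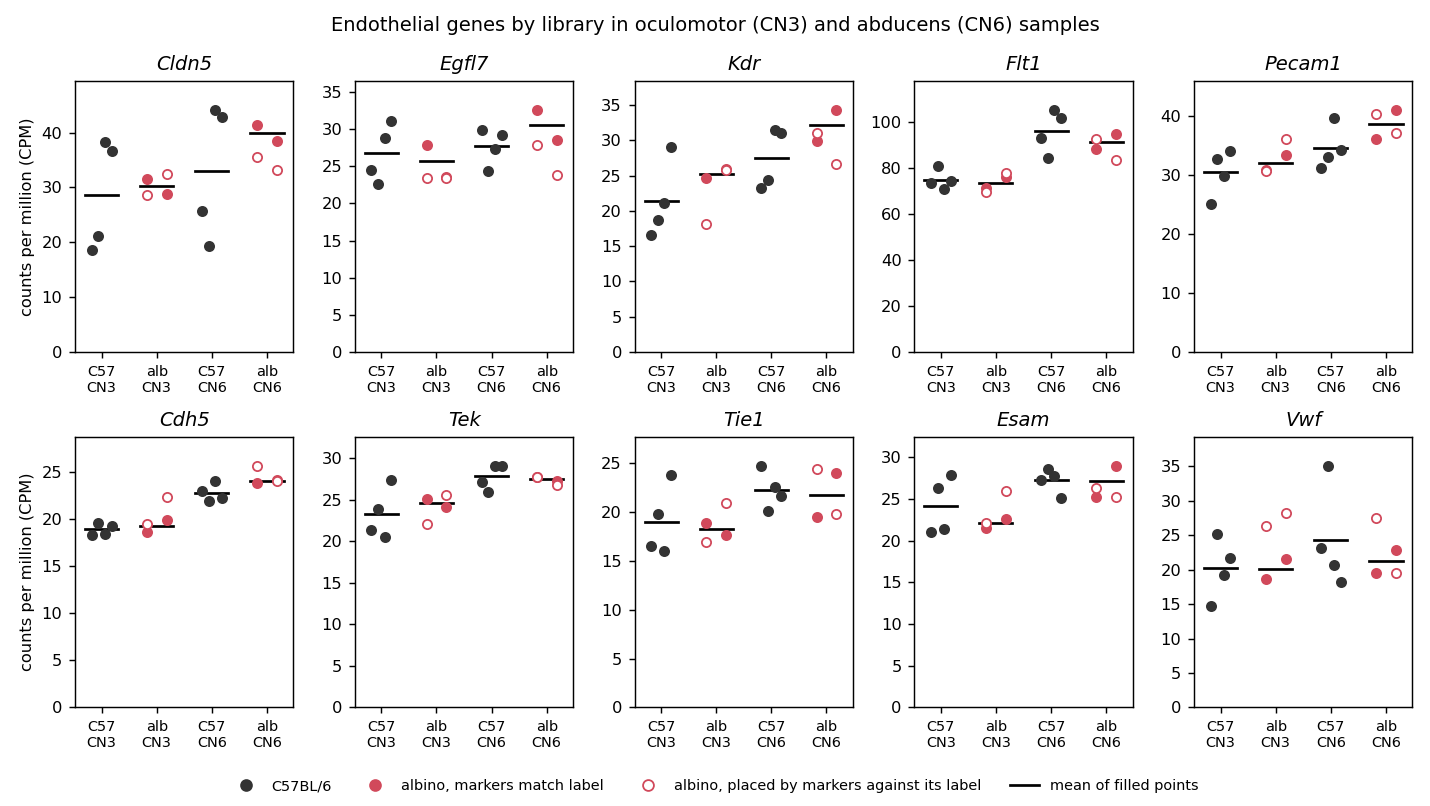
CPM of the 10 genes in each brainstem library, with the same symbols as in the muscle plot. No gene was called between genotypes, and the C57BL/6 values of Cldn5 form a low pair (18.5 to 25.8) and a high pair (36.7 to 44.1) in both tissues.

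Among C57BL/6 libraries the 10 genes divided by tissue in a way that set Cldn5 apart. In muscle relative to brainstem 9 of the 10 rose, where 41.4% of all genes rose, and 1, Cldn5, fell, where 47.4% of all genes fell. Cdh5 was higher by 2.94 ± 0.07 (log2, adjusted p = 7.8e-18), Pecam1 by 2.43 ± 0.07 (adjusted p = 2.4e-16) and Egfl7, the smallest of the 9, by 0.78 ± 0.07 (adjusted p = 7.8e-09). Cldn5 fell by 1.75 ± 0.21 (adjusted p = 3.1e-07). These directions held with library totals in place of scaling factors, which moved the median of all genes from -0.13 to -0.81, except that Egfl7 was then 0.09 and not called (adjusted p = 0.264). Of 30 other endothelial genes, 26 were higher in muscle and 4 lower, beside the same shares of all genes. The brain vessel transporter genes Slco1a4 and Slco1c1 of that list, picked after their values were seen, were higher in CN3 than in TA. Slco1a4 was 60.7 to 100.8 CPM in C57BL/6 CN3 and at most 0.173 CPM in C57BL/6 TA, and Slco1c1 63.3 to 73.3 and at most 0.230 CPM. In albino muscle Slco1c1 was at most 0.647 CPM and Slco1a4 at most 2.84 CPM in the libraries whose markers match their label. These albino values cover EOM and TA, while the C57BL/6 muscle values given are those of TA alone. They therefore do not compare the genotypes.

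Levels between genes were compared per kilobase of exon. In C57BL/6 EOM the order of the mean CPM per kilobase, with its SD over 4 libraries, was led by Cdh5 (27.0 ± 3.07) and Pecam1 (23.0 ± 1.08), and Tek followed (18.4 ± 1.32). Esam (14.2 ± 0.611) and Tie1 (12.95 ± 1.39) differed by no more than their spread. Egfl7 (9.04 ± 0.849), Kdr (8.84 ± 1.06) and Flt1 (8.76 ± 0.296) could not be ordered either. Vwf (5.77 ± 0.848) and Cldn5 (4.35 ± 0.688) were the lowest. In albino EOM, over 2 libraries, Egfl7 stood at 24.3 ± 2.01 CPM per kilobase, beside Pecam1 at 23.1 ± 0.0626, and Cldn5 at 14.8 ± 1.71. In C57BL/6 CN3 Cldn5 was the highest of the 10, at 20.2 ± 7.23, with Esam next at 8.43 ± 1.21, and in C57BL/6 CN6 it was 23.3 ± 8.73.

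Comparing the muscles in C57BL/6, where 74.1% of all genes were called in either direction, 6 of the 10 genes passed. Vwf (0.99 ± 0.18, EOM over TA), Tek (0.88 ± 0.10) and Kdr (0.51 ± 0.16) were higher in EOM, and Esam (-0.57 ± 0.09), Egfl7 (-0.40 ± 0.10) and Cdh5 (-0.33 ± 0.09) lower. These directions depend on the scaling, because the median of all genes was 0.16 with scaling factors, 0.89 with library totals only and -0.35 with GC and length offsets. With library totals Egfl7 was 0.33, Cdh5 0.39 and Esam 0.16, all positive, and with the offsets Kdr was -0.12. Vwf and Tek were positive and above the median of all genes under each of these 3 scalings. Their fitted values, from which the median was not taken off, were 0.99, 1.72 and 0.29 for Vwf (not called with the offsets). For Tek they were 0.88, 1.61 and 0.33. In CPM, Vwf was 72.9 to 103 in C57BL/6 EOM against 24.2 to 31.0 in C57BL/6 TA, and Tek 77.6 to 92.0 against 23.9 to 32.4.

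In the comparison of CN3 with CN6 in C57BL/6, 3 of the 10 genes were called, all lower in CN3, namely Flt1 (-0.40 ± 0.08, adjusted p = 0.00126), Cdh5 (-0.31 ± 0.09, adjusted p = 0.0204) and Tek (-0.30 ± 0.10, adjusted p = 0.0430), where 21.5% of all genes were called in either direction. All 10 fold changes were negative, with a median of -0.28 against 0.00 over all genes. Flt1 was 70.9 to 80.7 CPM in CN3 and 84.3 to 105 CPM in CN6, with no overlap. The Flt1 call held without any 1 library. That of Cdh5 was lost without C57BL/6 CN3 1 (-0.29), CN3 3 (-0.30) or CN6 3 (-0.27). That of Tek was lost without any of 8 libraries (EOM 2, TA 1 and 2, CN3 1 and 3, CN6 1, 3 and 4, at -0.24 to -0.31) and with no filter, GC and length offsets or library totals. Kdr passed without CN3 4 (-0.58), as did Tie1 (-0.38), and Esam passed without CN3 2 or 4 (-0.27 each).

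A wider endothelial list was counted in the same way, beside the shares of all genes that rose and fell (14.5% and 17.6% in EOM, 14.7% and 16.4% in TA). Calls in this list and the lists below were made without GC and length offsets, and were not checked with them. Over all genes those offsets took the calls from 4934 to 1733 in EOM and from 4131 to 3676 in TA. Of 30 other endothelial genes tested in EOM, 6 rose and 3 fell, with a median of 0.06, and of 27 tested in TA 9 rose and 1 fell, with a median of 0.09. In the marker groups 7 rose and 5 fell in EOM and 7 rose and 4 fell in TA. Aplnr, the apelin receptor of growing and venous endothelium, rose in both muscles (1.37 ± 0.22 in EOM, adjusted p = 0.00256, and 0.77 ± 0.19 in TA, adjusted p = 0.00833), from 5.48 to 9.11 CPM in C57BL/6 EOM to 16.8 and 20.2 CPM in albino EOM. Ly6a rose by 0.31 ± 0.07 in EOM and 0.51 ± 0.08 in TA. Cav1, which forms caveolae, fell by 0.43 ± 0.09 in EOM (adjusted p = 0.00776) and by 0.35 ± 0.10 in TA (adjusted p = 0.0166). Cd34 (0.72 ± 0.10) and Plvap (0.56 ± 0.14) rose in TA. Summed, this list was 2041 to 2215 CPM in C57BL/6 EOM and 2178 to 2341 in albino EOM, and the groups overlapped. In CN3 and CN6, 0 of 29 genes of the list passed.

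Some ligands of the 2 receptor families were called as well. Vegfa, the ligand of Kdr and Flt1, rose by 0.72 ± 0.19 in EOM (adjusted p = 0.0188) and 0.75 ± 0.10 in TA (adjusted p = 2.0e-04). It was 163 to 262 CPM in C57BL/6 EOM against 288 and 376 CPM in albino EOM, and 115 to 147 CPM in C57BL/6 TA against 202 and 240 CPM. Vegfb, a ligand of Flt1 but not of Kdr, rose by 0.52 ± 0.10 in EOM and 0.26 ± 0.08 in TA. Angpt1, the activating ligand of Tek, fell by 1.05 ± 0.11 in EOM (adjusted p = 5.9e-04) and by 0.53 ± 0.10 in TA (adjusted p = 0.00220), from 35.8 to 41.3 CPM to 17.5 and 19.6 CPM in EOM. Over this list of ligands and co-receptors, 2 of 10 tested genes rose and 3 fell in EOM (Angpt1, Figf and Nrp1), and 2 of 9 rose and 1 fell in TA, counts close to the shares of all genes (14.5% and 17.6% in EOM, 14.7% and 16.4% in TA). In CN3 and CN6, 0 of 9 passed.

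Lists for other cell types were counted too, and are read beside the same shares of all genes, 14.5% higher and 17.6% lower in EOM and 14.7% and 16.4% in TA. Of 14 mural cell genes, 4 rose and 3 fell in EOM and 6 rose and 1 fell in TA. Abcc9 fell in both muscles (-0.64 ± 0.12 and -0.50 ± 0.07) while Ndufa4l2 rose in both (1.08 ± 0.21 and 0.69 ± 0.15). Summed, the mural list lay between 1423 and 1730 CPM in C57BL/6 EOM, above the 1248 and 1256 CPM of albino EOM, but the libraries labelled albino CN3 3 and 4 lay within the C57BL/6 range, at 1549 to 1690 CPM. Of 12 tight junction genes other than Cldn5 tested in EOM, 0 rose and 3 fell (Cldn12, Tjp1 and Jam2), and of 8 tested in TA 1 rose and 2 fell. Of 6 lymphatic genes tested, 0 rose and 2 fell in EOM and 2 rose and 0 fell in TA, and Lyve1 fell by 1.13 ± 0.11 in EOM but was higher in TA, by 1.10 ± 0.20. Summed, the lymphatic list lay between 182 and 209 CPM in the EOM of C57BL/6 mice and at 117 and 120.2 CPM in that of albino mice. Of 12 macrophage genes 11 rose in TA, with a median of 1.96 and a summed level of 52.4 to 62.8 CPM in C57BL/6 and 169.5 to 214 CPM in albino, and 3 rose and 2 fell in EOM. Of the platelet genes 1 rose in each muscle (of 5 and 4 tested), and of the blood cell genes none of 3 and 2 tested was called. Of 14 fast fibre genes 7 rose and 1 fell in EOM and 1 rose and 2 fell in TA, and of the neuron genes 0 of 14 were called in EOM, and 1 rose and 1 fell of 5 tested in TA. The one that rose was Snap25, at 0 CPM in C57BL/6 TA and at 2.84 and 0.970 CPM in albino TA 3 and 4. The library labelled albino CN6 4 held 3.70 CPM of Snap25. It also held 94 CPM of Myh13, which was 23.8 to 34.8 CPM in C57BL/6 TA and 4272 to 4980 CPM in C57BL/6 EOM. Whether these libraries hold some other tissue was not tested. The part of these lists in the endothelial differences was not tested. The haemoglobin gene Hbb-bs was at 0 in all the 24 libraries, so the blood left in the vessels cannot be judged from it.

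**Figure D5:**
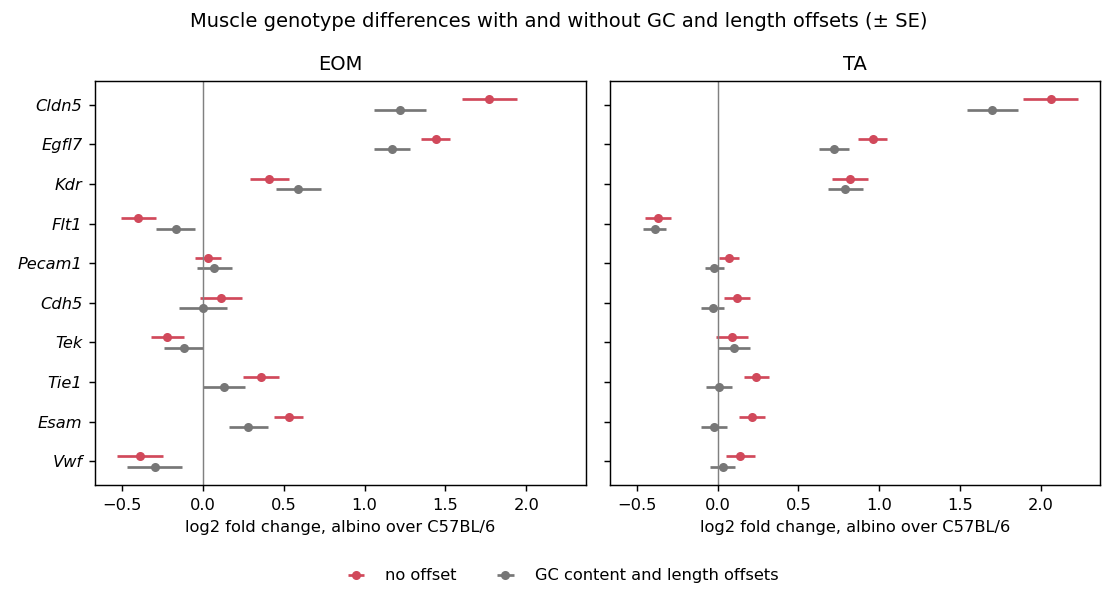
Log2 fold change of albino over C57BL/6 with its standard error for the 10 genes in EOM (left) and TA (right), in red as fitted and in grey with offsets for GC content and exon length. Cldn5 moves from 1.77 to 1.22 in EOM and from 2.06 to 1.70 in TA, Kdr is 0.59 and 0.79 with the offsets, and Tie1 and Esam move toward 0.

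The genes whose log2 CPM followed the chosen pair most closely over the 24 libraries, among 11803 candidates with a mean of at least 5 CPM, were as follows. For Cldn5 they were Metrn (Pearson's r = 0.93), Josd2 and Supt3 (0.92) and Grhpr and Emc4 (0.91). For Egfl7 they were Snx21 (0.92), Col5a3 (0.91), Timm10 and Timm10b (0.90) and Uros (0.89). These libraries fall into separate tissues and differ in base composition between genotypes in muscle, so the values describe likeness only.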

How the data were processed

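RNA from 32 mouse libraries was counted per gene. Per the submitters' processing notes, the authors used Trimmomatic 0.33, FastQC, HISAT2 2.1.0, featureCounts and edgeR with the mm10 genome, and they deposited raw counts per gene. The annotation, strand setting and filters are not given in the sources used here. Rows with names turned into dates (27) name no member.

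CPM values used the deposited library totals. Genotype and tissue differences were fitted in edgeR 4.0.16 (R 4.3.3) with TMM scaling, filterByExpr, the quasi-likelihood test and Benjamini-Hochberg adjustment over all genes tested, and called at an adjusted p under 0.05. Standard errors are the log2 fold change divided by the square root of F. Log2 CPM used a prior count of 2. Exon lengths, GC content and positions came from GENCODE M21. The script was tested on simulated data. Alternatives were DESeq2 1.42.0 (size factors and Wald test), no filter, a replicate block, GC and length offsets (splines with 5 degrees of freedom), other groupings of the albino libraries, leaving out each library and, chosen after seeing the data, library totals only.

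The members and lists were chosen with earlier results of these data known. Besides the 10 members, up to 4 called genes of each list with the smallest adjusted p per muscle could be named, together with the 5 genes most like Cldn5 and Egfl7 and the label markers. Agpat2, Hbb-bs, Slco1a4 and Slco1c1 were named after their values were seen.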

Additional observations from a re-analysis of the deposited data

Results flagged for a closer look

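Within groups of 4 libraries, 1 value stood apart from the other 3 by more than Dixon's 95% limit in 4 of 40 groups, where chance gives about 1 in 20. These were Flt1 at 112.4 CPM in C57BL/6 EOM 3, and Kdr at 25.68 CPM, Cdh5 at 74.73 CPM and Tie1 at 32.95 CPM in C57BL/6 TA 3. Each was the lowest of its group. The Kdr, Cdh5 and Tie1 values come from 1 library, and these genes moved together over the 12 muscle libraries. Pearson's r was 0.93 for Kdr and Cdh5, 0.96 for Kdr and Tie1 and 0.94 for Cdh5 and Tie1. The 40 groups are therefore not independent, and the chance rate cannot be set against their count.

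In the 8 albino libraries left out of the main comparisons, some genes lay above every C57BL/6 library of the tissue their markers point to. The albino muscle groups in which Cldn5 and Egfl7 were chosen for their rise included those of these libraries with muscle markers. The Cldn5 and Egfl7 values below therefore repeat that choice and are no separate evidence. The libraries labelled albino CN3 3 and 4 lay above every C57BL/6 EOM library with 17.79 and 33.87 CPM of Cldn5, 87.07 and 99.3 CPM of Egfl7, 103.4 and 121.1 CPM of Kdr, 82.54 and 78.41 CPM of Tie1, and 46.54 and 59.06 CPM of Esam. The libraries labelled albino CN6 3 and 4 lay above every C57BL/6 TA library with 19.9 and 34.33 CPM of Cldn5, 65.38 and 49.75 CPM of Egfl7, and 66.91 and 66.77 CPM of Kdr. The libraries labelled albino EOM 1 and 2 held 26.33 and 28.22 CPM of Vwf, above C57BL/6 CN3, and those labelled albino TA 1 and 2 held 25.72 and 24.1 CPM of Cdh5, above C57BL/6 CN6.

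Other values in these libraries were below every C57BL/6 library of that tissue. The libraries labelled albino CN3 3 and 4 lay below C57BL/6 EOM with 70.25 and 86.93 CPM of Flt1, 68.12 and 77.52 CPM of Tek, and 70.67 and 63.84 CPM of Vwf. The libraries labelled albino CN6 3 and 4 lay below C57BL/6 TA with 43.69 and 47.73 CPM of Flt1, 73.49 and 76.1 CPM of Pecam1, and 33.11 and 30.55 CPM of Esam. In either direction, only genes with both libraries outside the C57BL/6 range are listed. With so few libraries some genes lie outside that range by chance. The share of all genes that do so was not counted, so the listed values carry no test.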

How the results depend on the processing

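Over all genes, 4934 were called in EOM, 4131 in TA, 13 in CN3, 4 in CN6, 1211 for genotype by muscle, 12356 for C57BL/6 EOM against TA, 3590 for CN3 against CN6 and 14804 for muscle against brainstem. With all libraries as labelled the counts were 1 in EOM, 18 in TA, 0 in CN3, 0 in CN6 and 33 by muscle, and the signs turned for Kdr (-0.33), Tie1 (-0.36) and Esam (-0.02) in EOM and Tie1 (-0.40) in TA, in groups that mix muscle and brain. In the marker groups they were 45 in CN3, 19 in CN6 and 1988 by muscle, and with the set-aside albino libraries alone 2677 in TA, 6 in CN3, 12 in CN6 and 588 by muscle. GC and length offsets gave 1733 in EOM, DESeq2's Wald test 101 in CN3, 106 in CN6 and 1924 by muscle, and no filter 21 in CN3 and 21 in CN6. Leaving out 1 library gave 2738 to 4811 in EOM, 2484 to 3849 in TA, 2 to 12 in CN3, 4 to 950 in CN6, 591 to 1355 by muscle, 11975 to 12468 for EOM against TA, 2524 to 3947 for CN3 against CN6 and 14766 to 14940 for muscle against brainstem. In EOM against TA, offsets turned Kdr (-0.12), Flt1 (-0.63), Pecam1 (-0.53) and Tie1 (-0.58), and library totals turned Egfl7 (0.33), Cdh5 (0.39) and Esam (0.16). The higher and lower calls there were 6886 and 5470, against 11812 and 1569 with totals and 4782 and 8275 with offsets. For muscle against brainstem they were 6901 and 7903, against 4528 and 10582 with totals and 8445 and 6440 with offsets. In TA they were 1950 and 2181, against 1269 and 2407 with offsets, by muscle 350 and 861, against 681 and 561 with offsets, and for CN3 against CN6 1582 and 2008, against 2004 and 1706 with totals. The cause was not tested.

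With the replicate number as a block, 2641 genes were called in EOM, 5 in CN3 and 0 in CN6, and of the 10 genes only Flt1 in EOM changed its call (-0.38, adjusted p = 0.0610). In the brainstem the block moved Cldn5 from 0.09 to 0.60 ± 0.11 in CN3 (adjusted p = 0.353) and from 0.26 to 0.84 ± 0.13 in CN6 (adjusted p = 0.702), and Kdr from 0.26 to 0.52 ± 0.09 in CN3 (adjusted p = 0.353) and from 0.21 to 0.44 ± 0.12 in CN6 (adjusted p = 0.998), none of them called. Over all genes, the deviations of libraries with the same number correlated between -0.19 and 0.25. No comparison of 3 or more pairs had every pair above 0.1, and the main fits did not use the numbers as pairs. The genotype comparisons have fewer pairs than this rule asks for, so it cannot decide whether their libraries are paired. Over the 10 genes alone, the C57BL/6 CN3 and CN6 libraries of the same number correlated at 0.65, 0.86, 0.70 and 0.54. The C57BL/6 EOM and TA libraries did so at 0.73, 0.21, 0.72 and -0.38, and the genotype pairs between -0.49 and 0.75. Whether libraries of the same number share a source was not tested.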
